A study of Homo sapiens with 8 samples.

Results

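ATP-binding cassette (ABC) transporter genes other than ABCB1 and ABCB4 were followed in sorted cells of J82, a line established from human bladder cancer. The members were 42 of the 57820 genes in the count table, listed by gene symbol over the subfamilies ABCA to ABCG and found through their gene identifiers with the version removed. The rule for choosing them uses gene names and no measured value, but it was set with earlier results of these data known. J82 cells were grown in DMEM with 10% FBS and sorted on the DNA dye Hoechst into a side population (SP), which keeps little dye, and a non-side population (NSP), which keeps it. The labels name no drug treatment of either population, and RNA from 4 SP and 4 NSP libraries was sequenced. SP is a functional gate and not a clone, so cells of either population can be mixed, and in bulk RNA a smaller number of expressing cells and less RNA per cell cannot be told apart. No label says that the libraries of a group were separate cultures or sorts, so the p-values measure the spread between these libraries, which may be technical.

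ABC transporters bind and hydrolyse ATP on paired nucleotide-binding domains and use the energy to move substrates across membranes. The ABCA and ABCG proteins mostly carry lipids and sterols, the ABCB proteins carry drugs, peptides and mitochondrial substrates, the ABCC proteins export drug and glutathione conjugates or form ion channels and channel subunits, and the ABCD proteins serve peroxisomes and lysosomes. ABCE and ABCF proteins keep the ATP-binding domains but have no membrane domain, and act on ribosomes. Hoechst is itself pumped out of cells by ABC efflux pumps, ABCG2 and ABCB1 above all, which is why the other drug pumps of the family are of interest in an SP sort.

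The SP libraries held 1431823 to 1697218 counts and the NSP libraries 1489033 to 2073526. The paper states many times more raw reads per sample than these counts. Why most reads did not enter the counts was not tested, so a low count may not mean little RNA. The 42 members together had 16253 counts, and 8 members had 0 counts in all 8 libraries, 34 had at least 1 count and 20 were found in every library. A gene at 0 in all 8 libraries could still be present at up to 0.226 CPM of the total counts (CPM scales a count to 1e+06 counts), taking 3 counts over all libraries as the limit, which like the other floors covers counting error only. After the filter on low counts 14 members were tested among 9309 genes, and the 20 members with counts that were too few to test had only 371 counts in all, 188 in SP and 183 in NSP. The defining leukocyte genes PTPRC and CD3E and the erythroid gene HBB were at 0 in all libraries. The summed epithelial markers were 3428 to 4781 CPM in SP and 4669 to 6406 in NSP with 10 of 12 detected, KRT20 and UPK3A being at 0. KRT8 alone gave 2792 to 3845 CPM in SP and 3419 to 5093 in NSP. KRT5, EPCAM, UPK1B, CDH1 and GATA3 had only 1, 3, 13, 24 and 34 counts in all. The 7 mesenchymal markers, all detected, were 382 to 603 CPM in SP and 546 to 919 in NSP. VIM alone gave 200 to 373 CPM in SP and 354 to 746 in NSP. These markers differed in direction, with COL1A2 at a log2 fold change of 2.09 and FN1 at -1.25 (SP against NSP, edgeR). CD14 was the 1 leukocyte gene of 6 with more than a single count and lifted that sum to 38.4 to 86.1 CPM in SP and 12.1 to 53.2 in NSP. The part of these differences in the values of the ABC genes was not tested.

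Members were first placed by subfamily and by count. The strand on which reads were counted is not given in the sources used here. Whether the counts stand for mRNA of the members was not tested. The member counts were unevenly divided: ABCB held 56.9% of them, ABCF 20.02%, ABCC 12.4% and ABCA 9.39%, while ABCD, ABCE and ABCG held 0.714%, 0.363% and 0.148%. Per kb of exon, with the 8 libraries summed, ABCB9 had 668 counts and ABCF1 had 535, and every other member was below 100. ABCF2 had 93.3, ABCC1 had 84.1, ABCF3 had 71.9, ABCA2 had 67.4 and ABCC11 had 63.2 counts per kb. The median was 7.17 counts per kb over the 34 members with counts and 58.5 over the 14 tested members, beside 83.5 over all tested genes. The members together made up 0.117% to 0.126% of the counts in each library.

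**Figure D1:**
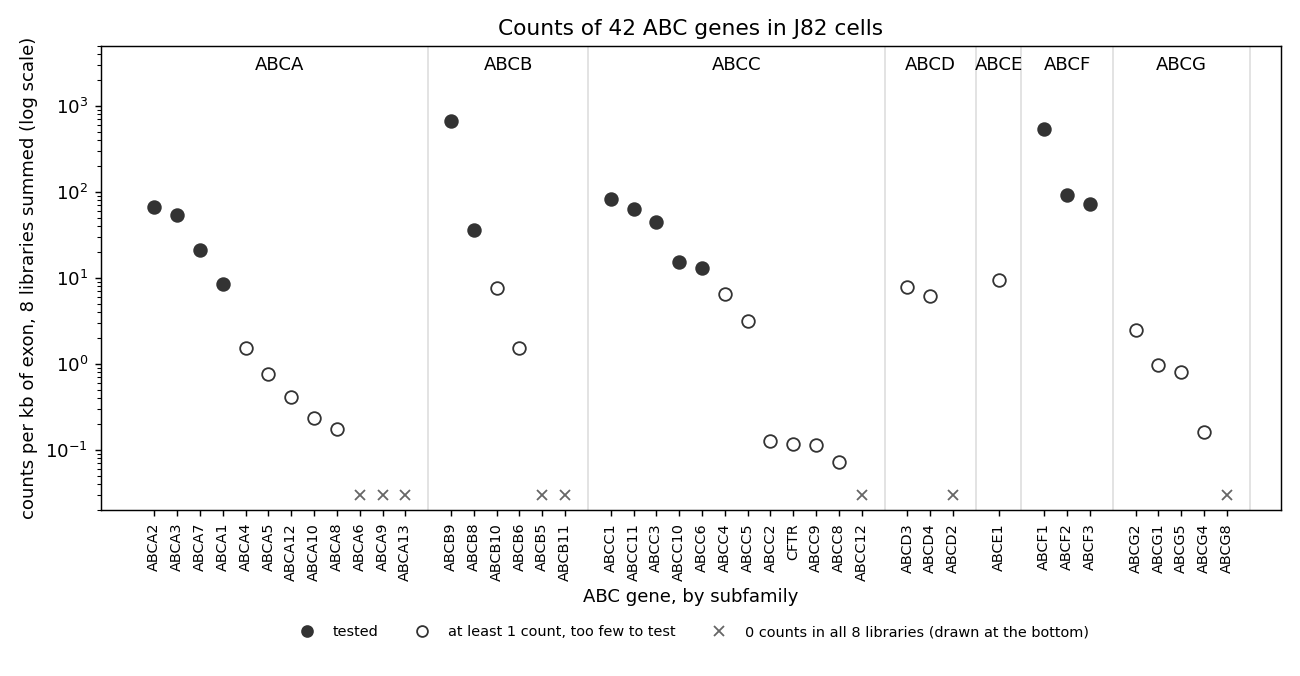
Counts per kb of exon (log axis, 8 libraries summed) of the 42 ABC genes, ordered within each subfamily. Filled circles are the 14 tested members, open circles the 20 with too few counts to test and crosses at the bottom the 8 at 0; ABCB9 and ABCF1 stand at 668 and 535 counts per kb and no tested member falls in ABCD, ABCE or ABCG.

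None of the 14 tested members was called higher or lower in SP by the quasi-likelihood test of edgeR, where a call needs a Benjamini-Hochberg adjusted p below 0.05 together with more than 1.3-fold. Over all tested genes, 1.63% were called higher and 2.03% lower, 3.66% in all. At an unadjusted p-value under 0.05 there was 1 member, ABCA3, beside 16.4% of all tested genes. DESeq2 called 0 of the 34 members it fitted, beside 153 genes called higher and 246 lower in SP among 26361 fitted. Limma voom called 0 of 14 members, beside 177 genes called higher and 214 lower among 9309. When edgeR was fitted with a replicate block, 1 member, ABCA3, was called higher, beside 5.89% of all tested genes, and 0 were called lower. The log2 fold change of SP against NSP was above 0 for 9 members and below 0 for 5, beside 51.8% of all tested genes above 0, with a median of 0.11 beside 0.01 over all tested genes. In 10 of the 14 members the 95% interval of the log2 fold change lay within 1 of 0 in both directions, a 2-fold change. An increase of 2-fold was outside the interval of 11 members and a decrease of 2-fold outside that of 13. ABCB1, the drug pump measured in the same libraries, was called higher in SP at 30.3 ± 4.76 CPM against 4.05 ± 3.23 in NSP (SD, n = 4 each), a log2 fold change of 2.96 (SE 0.38, edgeR adjusted p = 0.000744).

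**Figure D2:**
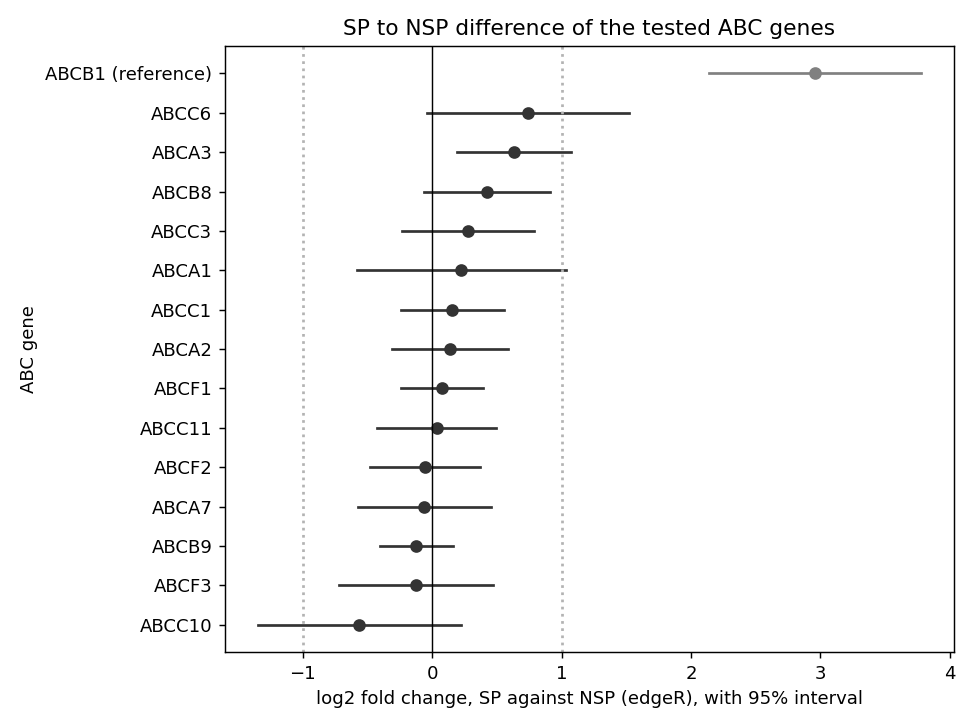
Log2 fold change of SP against NSP (edgeR, horizontal axis) with its 95% interval for the 14 tested ABC genes, ordered by value, with ABCB1 in grey as reference. Dotted lines mark 2-fold; the intervals of the 14 genes run from -1.35 to 1.52 and all but that of ABCA3 include 0, while ABCB1 lies at 2.96.

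The ABCA subfamily holds large lipid transporters, and 4 of its 12 members were tested. ABCA3, which loads phospholipid into the lamellar bodies of lung surfactant cells, was the 1 member whose libraries did not overlap between the groups, beside 4.78% of all tested genes with every SP library above every NSP library. No member had every SP library below every NSP library, beside 4.97% of all tested genes, which makes 9.75% without overlap in either direction. ABCA3 (ENSG00000167972.9, chr16:2325882-2390747 in GRCh37, minus strand) had 57, 64, 72 and 49 counts in SP libraries 1 to 4 and 35, 66, 35 and 42 counts in NSP libraries 1 to 4. On the CPM scale, which divides the count by the normalized library size, these were 41.1, 42.9, 39.0 and 36.1 in SP and 18.6, 32.6, 22.3 and 29.0 in NSP. The lowest SP library thus stood above the highest NSP library, and the SP libraries were closer to each other than the NSP libraries. The means were 39.8 ± 2.93 CPM in SP and 25.6 ± 6.33 CPM in NSP (SD, n = 4 each). The exact two-sided permutation test gave p = 0.0286, the smallest it allows with 4 against 4. Any gene without overlap gets this value, so it adds nothing to the separation itself. The log2 fold change of ABCA3 was 0.63 (95% interval 0.19 to 1.07), and with an adjusted p of 0.117 by edgeR's quasi-likelihood test it was not called. With the replicate number as a block the log2 fold change was 0.65 and the edgeR adjusted p was 0.0131, so that ABCA3 was then called higher in SP. No exon of another gene crossed the exons of ABCA3, and 0.727% of its 50-base exon windows occurred elsewhere in GRCh37. The pseudogene ABCA17P, whose span crosses that of ABCA3, had 15 counts in SP and 18 in NSP.

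ABCA1, which passes cholesterol and phospholipid to apolipoprotein A-I, had 8, 20, 13 and 8 counts in SP libraries 1 to 4 and 8, 21, 12 and 7 in NSP libraries 1 to 4. Replicate 2 was the highest library of both groups, and the groups overlapped over nearly their whole range. The log2 fold change of ABCA1 was 0.22 (95% interval -0.58 to 1.03, edgeR adjusted p = 0.832), and without SP replicate 2 it was -0.13. ABCA2, a late endosomal and lysosomal lipid transporter, had the most counts per kb of its subfamily. It had 98, 100, 76 and 104 counts in SP libraries 1 to 4 and 83, 133, 82 and 99 in NSP libraries 1 to 4. The levels of ABCA2 were 70.6, 67.0, 41.1 and 76.6 CPM in SP and 44.2, 65.7, 52.3 and 68.5 CPM in NSP. SP replicate 3 was the lowest library of ABCA2 and the others overlapped, with a log2 fold change of 0.14 (95% interval -0.31 to 0.59, edgeR adjusted p = 0.807). ABCA7, a phospholipid transporter linked to phagocytosis, had 203 counts in all, at 15.3 ± 3.22 CPM in SP and 16.01 ± 1.25 CPM in NSP (SD, n = 4 each), a log2 fold change of -0.06 (95% interval -0.58 to 0.46). The other ABCA genes were at the edge of detection in these counts. ABCA4, the retinoid transporter of photoreceptors, had 13 counts, ABCA5 had 10 (8 in SP, 2 in NSP), ABCA12, which carries skin barrier lipids, had 4, and ABCA8 and ABCA10 had 2 each, in a single library. ABCA6, ABCA9 and ABCA13 had 0 counts in all libraries.

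ABCB9, a lysosomal peptide transporter also called TAPL, had the most counts of all members. ABCB9 (ENSG00000150967.13, chr12:123405498-123466196 in GRCh37, minus strand) had 926, 1008, 1066 and 945 counts in SP libraries 1 to 4 and 1360, 1455, 1137 and 980 in NSP libraries 1 to 4. Scaled to CPM these were 667, 676, 577 and 696 in SP and 723, 719, 725 and 678 in NSP. SP replicate 4 stood above NSP replicate 4, so the groups overlapped, although the other SP libraries were below all NSP libraries. The means were 654 ± 52.5 and 711 ± 22.6 CPM (SD, n = 4 each), with a log2 fold change of -0.12 (95% interval -0.41 to 0.16, edgeR adjusted p = 0.719) and an exact two-sided permutation p of 0.0571. The interval of ABCB9 was the narrowest of the 14 tested members, at the largest count. With ABCB9 left out, the members made up 0.0569% to 0.0632% of the counts of the SP libraries and 0.0479% to 0.0570% of those of the NSP libraries.

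Exons of 3 other genes run across the exons of ABCB9 on the other strand, and the strand setting of the counting is not given in the sources used here. The oxygenase gene OGFOD2 overlapped 1656 bases of ABCB9 exon and had 132 counts in all, and the splicing regulator gene ARL6IP4 overlapped 1590 bases and had 0 counts in all 8 libraries. An lncRNA, ENSG00000256028, overlapped 2752 bases and had 6 counts. Nearly all the counts of this locus were thus assigned to ABCB9. Of the exon bases of ARL6IP4, 57.2% cross ABCB9, and the others had 0 counts too. Over the series, the lncRNA of an opposite-strand pair with a protein-coding gene was the one with more counts per kb of exon in 525 of 595 pairs (88.2%). Where the exons cross, reads of ABCB9 and of its neighbours cannot be told apart from these counts. The level of ABCB9, its rank among the members and the share of the ABCB subfamily are uncertain. The strand setting applies to the whole count table, so what the counts of every member stand for depends on it. Whether they are mRNA of the named gene or RNA of the other strand was not tested. The same holds for ABCB1 and the listed genes.

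**Figure D3:**
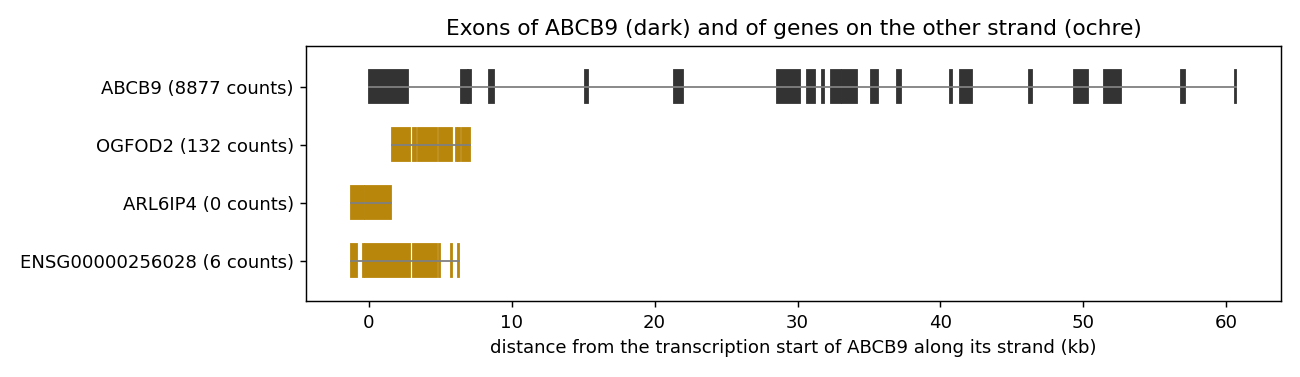
Exons of ABCB9 (dark) and of the 3 genes whose exons cross them on the other strand (ochre), against the distance from the transcription start of ABCB9 along its strand in kb (exons merged over annotated transcripts). The crossing exons lie within the first 8 kb of a gene of 60.7 kb, and the counts of the 8 libraries are 8877 for ABCB9 against 132, 0 and 6.

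ABCB8, part of an ATP-sensitive potassium channel of the inner mitochondrial membrane, was the other tested ABCB gene. It had 33, 59, 60 and 29 counts in SP libraries 1 to 4 and 42, 50, 34 and 27 in NSP libraries 1 to 4. SP replicates 2 and 3 were above all NSP libraries on the CPM scale and SP replicates 1 and 4 were not. The levels of ABCB8 were 29.3 ± 8.34 CPM in SP and 21.8 ± 2.48 CPM in NSP (SD, n = 4 each), a log2 fold change of 0.42 (95% interval -0.07 to 0.91, edgeR adjusted p = 0.389). ABCB10, which acts beside the heme enzymes in mitochondria, had 33 counts, 10 in SP and 23 in NSP, of which NSP replicates 1 and 2 gave 7 and 12. ABCB6, a porphyrin transporter, had 8 counts, 4 in each group. ABCB5, a marker of melanoma stem-like cells and a drug pump, and ABCB11, the bile salt export pump of hepatocytes, had 0 counts in all libraries.

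The ABCC subfamily holds the multidrug resistance proteins (MRPs), which export glutathione, glucuronide and sulfate conjugates. ABCC1, or MRP1, had the most counts per kb of its subfamily, with 87, 88, 127 and 61 counts in SP libraries 1 to 4 and 104, 131, 73 and 64 in NSP libraries 1 to 4. Replicate 4 was the lowest library of both groups on the CPM scale, and the groups overlapped. ABCC1 had 58.8 ± 10.1 CPM in SP and 52.7 ± 9.31 CPM in NSP (SD, n = 4 each), a log2 fold change of 0.16 (95% interval -0.24 to 0.55, edgeR adjusted p = 0.744). ABCC3, or MRP3, a pump of glucuronides and bile acids, had 62, 43, 56 and 63 counts in SP libraries 1 to 4 and 51, 72, 32 and 58 in NSP libraries 1 to 4. In SP, replicates 1 and 4 of ABCC3 were high and replicates 2 and 3 were within the range of NSP. The log2 fold change of ABCC3 was 0.28 (95% interval -0.23 to 0.79, edgeR adjusted p = 0.625). For both pumps the interval left out a 2-fold change in either direction.

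ABCC11, or MRP8, the transporter behind earwax type, had 67, 58, 90 and 39 counts in SP libraries 1 to 4 and 76, 87, 77 and 41 in NSP libraries 1 to 4. Replicate 4 was the lowest library in both groups, and the groups overlapped. ABCC11 had 41.1 ± 9.46 CPM in SP and 40.2 ± 8.71 CPM in NSP (SD, n = 4 each), a log2 fold change of 0.03 (95% interval -0.43 to 0.50, edgeR adjusted p = 0.961). The exons of LONP2, a peroxisomal protease gene, cross 289 bases of ABCC11 exon on the other strand. LONP2 had 2251 counts and 214 ± 39.4 CPM in SP against 141 ± 12.1 CPM in NSP (SD, n = 4 each), a log2 fold change of 0.60 with an edgeR adjusted p of 0.0526, or 0.000645 with the replicate block. ABCC10, or MRP7, which exports taxanes, had 8, 8, 10 and 20 counts in SP libraries 1 to 4 and 27, 16, 15 and 20 in NSP libraries 1 to 4. SP replicates 1 to 3 were below all NSP libraries on the CPM scale, and SP replicate 4 was above all of them. ABCC10 had a log2 fold change of -0.56 (95% interval -1.35 to 0.22, edgeR adjusted p = 0.492), and without SP replicate 4 of -1.04.

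ABCC6, whose loss causes the calcifying disease pseudoxanthoma elasticum through lower ATP release, had the largest log2 fold change of the tested members, and its interval reached furthest above 0. It had 19, 15, 8 and 12 counts in SP libraries 1 to 4 and 8, 10, 9 and 10 in NSP libraries 1 to 4. The SP libraries spread from 4.33 to 13.7 CPM and the NSP libraries from 4.26 to 6.91 CPM, and SP replicate 3 lay within the NSP range. The log2 fold change of ABCC6 was 0.74 (95% interval -0.04 to 1.52, edgeR adjusted p = 0.336), from 0.49 without SP replicate 1 to 1.002 without SP replicate 3. A short read cannot always be placed on ABCC6, because its 5′ end is copied in the pseudogenes ABCC6P1 and ABCC6P2 on the same chromosome. Of all 50-base windows in ABCC6 exons, 19.2% occurred elsewhere in GRCh37, more than in any other member, beside 9.97% for ABCE1 and 7.44% for ABCF1. Counted within chromosome 16, windows of coding exons 3 to 6 of the canonical transcript were all copied elsewhere, and of exon 9 26.4%, while of exons 10 to 12 0% were. The following sequences show an exon that single-end 50-base reads cannot place and one that they can place in part. They are read 5′ to 3′ along ABCC6 from GRCh37, with capitals at the positions that differ between the copies, counted from 1 at the 5′ end. Exon 4 (129 bases) lies at chr16:16313411-16313539 (minus strand) in ABCC6, at chr16:14914649-14914777 (minus strand) in ABCC6P2, with C128T, and at chr16:18586348-18586476 (plus strand) in ABCC6P1, with G28A.
ABCC6 exon 4: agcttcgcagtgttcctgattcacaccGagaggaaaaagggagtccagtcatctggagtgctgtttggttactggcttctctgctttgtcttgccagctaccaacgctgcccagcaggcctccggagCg
ABCC6P2 exon 4: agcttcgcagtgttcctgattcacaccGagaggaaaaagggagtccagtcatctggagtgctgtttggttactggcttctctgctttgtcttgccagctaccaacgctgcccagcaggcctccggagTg
ABCC6P1 exon 4: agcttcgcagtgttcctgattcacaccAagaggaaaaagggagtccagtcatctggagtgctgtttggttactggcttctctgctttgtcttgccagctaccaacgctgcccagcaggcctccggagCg
Exon 9 (178 bases) lies at chr16:16295858-16296035 (minus strand) in ABCC6 and at chr16:18603861-18604038 (plus strand) in ABCC6P1, with A79G, C134T and T143C and an identity of 98.3%.
ABCC6 exon 9: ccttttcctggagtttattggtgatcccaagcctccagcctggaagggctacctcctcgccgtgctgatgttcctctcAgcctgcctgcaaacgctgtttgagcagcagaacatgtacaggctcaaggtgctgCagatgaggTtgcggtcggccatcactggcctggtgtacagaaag
ABCC6P1 exon 9: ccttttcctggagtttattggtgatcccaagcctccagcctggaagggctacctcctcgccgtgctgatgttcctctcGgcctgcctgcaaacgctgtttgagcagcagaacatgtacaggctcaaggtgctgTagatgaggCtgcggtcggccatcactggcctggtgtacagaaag
Each exon 4 copy in the pseudogenes differed from ABCC6 at 1 base. The count table gave ABCC6P1 and ABCC6P2 2 counts each, beside 91 for ABCC6, and how reads with several matches were counted is not given in the sources used here.

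Of the ABCC genes too low to test, ABCC4, or MRP4, a pump of cyclic nucleotides and prostaglandins, had the most counts. It had 7, 3, 6 and 4 counts in SP libraries 1 to 4 and 8, 12, 11 and 6 in NSP libraries 1 to 4, 20 against 37 in all. The groups overlapped on the CPM scale, with an exact two-sided permutation p of 0.0857. ABCC5, or MRP5, a cyclic nucleotide pump, had 14 counts in SP and 22 in NSP. ABCC2, or MRP2, the apical conjugate pump of liver and kidney often named in cisplatin resistance, had 1 count in all 8 libraries. CFTR, the chloride channel of the family, had 2 counts, 1 each in SP replicates 1 and 3. ABCC8 and ABCC9, the sulfonylurea receptors of ATP-sensitive potassium channels, had 2 counts each, and ABCC12 had 0. Differences between SP and NSP were not detectable for these genes at so few counts.

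**Figure D4:**
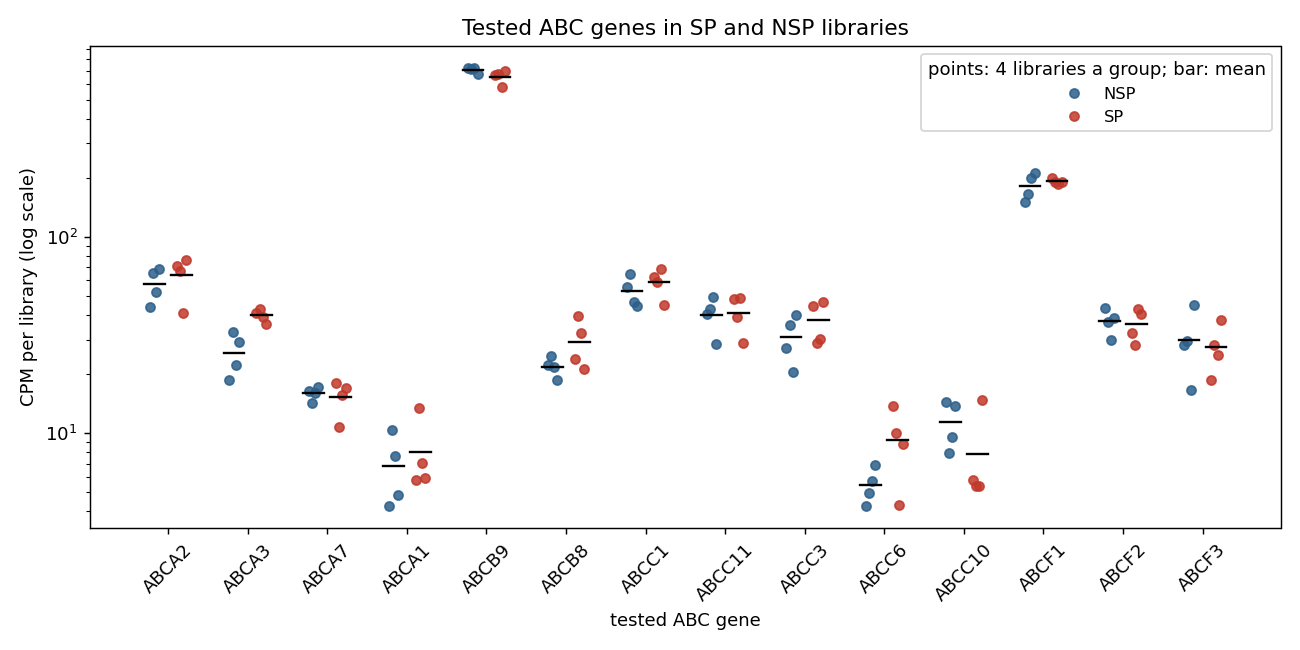
CPM per library (log axis) of the 14 tested ABC genes in NSP (blue) and SP (red), with 4 points per group and a bar at the mean. ABCA3 is the 1 gene whose points do not overlap, at 36.1 to 42.9 CPM in SP and 18.6 to 32.6 CPM in NSP, while a single SP point stands apart for ABCC10 at 14.7 CPM.

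The ABCD, ABCE and ABCG subfamilies held no tested member. ABCD3, which imports fatty acyl-CoA into peroxisomes, had 8, 10, 7 and 12 counts in SP libraries 1 to 4 and 7, 4, 7 and 6 in NSP libraries 1 to 4. ABCD4, which works with LMBRD1 in releasing cobalamin from lysosomes, had 6, 6, 14 and 10 counts in SP libraries 1 to 4 and 10, 5, 0 and 4 in NSP libraries 1 to 4. For both genes the groups overlapped, with an exact two-sided permutation p of 0.0857 each. Where no gene was filtered out, edgeR gave ABCD4 a log2 fold change of 1.07 with an unadjusted p of 0.0338 and an adjusted p of 0.419, and none of the 34 members then fitted was called, beside 2.59% of all genes. ABCD2, a peroxisomal transporter of very long chain fatty acids, had 0 counts in all libraries.

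ABCG2, the breast cancer resistance protein and a Hoechst pump, had 4, 3, 4 and 0 counts in SP libraries 1 to 4 and 1, 0, 2 and 0 in NSP libraries 1 to 4. Replicate 4 had 0 counts in both groups, and the groups overlapped. The sum was 11 counts in SP and 3 in NSP, with an exact two-sided permutation p of 0.200. Without the filter edgeR gave ABCG2 a log2 fold change of 1.85 with an unadjusted p of 0.0603 and an adjusted p of 0.525. A library without a count allows up to 2.21 CPM, and the highest library of ABCG2 was SP replicate 1 at 2.88 CPM. The counts of ABCG2 thus lay near the floor in both populations, and a low count may not mean little RNA. ABCG1, a sterol transporter that works beside ABCA1, had 6 counts, 3 in each group. ABCG4, its relative in brain, had 1 count, ABCG5, which pairs with ABCG8 to export plant sterols, had 3, and ABCG8 had 0.

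ABCE1, which splits ribosomes for recycling, had 59 counts, 27 in SP and 32 in NSP, and was found in all 8 libraries. These were 7, 5, 10 and 5 counts in SP libraries 1 to 4 and 9, 7, 9 and 7 in NSP libraries 1 to 4, and the groups overlapped. OTUD4, whose exons cross 276 bases of ABCE1 exon on the other strand, had 1321 counts, 524 in SP and 797 in NSP. The log2 fold change of OTUD4 was -0.43 with an edgeR adjusted p of 0.198, or 0.0353 with the replicate block. The part of OTUD4 and of the copied windows in the counts of ABCE1 was not tested. All 3 ABCF genes were tested. ABCF1, which acts with eIF2 in translation initiation, had 277, 284, 345 and 258 counts in SP libraries 1 to 4 and 284, 336, 314 and 306 in NSP libraries 1 to 4. Its SP libraries were within 187 to 200 CPM and its NSP libraries spread from 151 to 212 CPM, around and on both sides of SP. ABCF1 had a log2 fold change of 0.07 (95% interval -0.24 to 0.39, edgeR adjusted p = 0.854). ABCF2 had 481 counts in all, at 36.0 ± 6.84 CPM in SP and 37.3 ± 5.65 CPM in NSP (SD, n = 4 each), a log2 fold change of -0.05 (95% interval -0.48 to 0.37). ABCF3, a relative of a yeast protein of amino acid sensing, had 369 counts in all, at 27.3 ± 7.85 CPM in SP and 29.8 ± 11.6 CPM in NSP (SD, n = 4 each), a log2 fold change of -0.12 (95% interval -0.72 to 0.47). The intervals of the 3 genes left out a 2-fold change in either direction.

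Genes that supply, regulate or work beside ABC proteins were read from the same fit in 8 lists, and 2 of their 85 tested genes were called by edgeR, 1 in each direction. This is 2.35% of the tested list genes, beside 3.66% of all tested genes, so the lists as a whole held no larger share of calls. In the list of xenobiotic and nuclear receptor regulators of efflux pumps, 8 of 15 genes were tested and 1 was called higher. This was HIF1A, the oxygen-regulated transcription factor, at 225 ± 8.44 CPM in SP and 113 ± 22.8 CPM in NSP (SD, n = 4 each), with a log2 fold change of 1.001 (SE 0.16, edgeR adjusted p = 0.00332). The lncRNA HIF1A-AS1, with 133 bases across HIF1A exons on the other strand, had 10921 counts and a log2 fold change of 0.76 (edgeR adjusted p = 0.00949). AHR, the aryl hydrocarbon receptor, had a log2 fold change of 0.98 with an edgeR adjusted p of 0.0905, or 0.00843 with the replicate block. The lncRNA ENSG00000237773, with 492 bases across AHR exons on the other strand, had 360 counts beside 178 for AHR. Its log2 fold change was 0.86 (edgeR adjusted p = 0.124). NR1I2 and NR1H4 had 0 counts. The median log2 fold change of the 8 tested genes was 0.26.

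In the list of translation partners of ABCE1 and ABCF, 14 of 16 genes were tested and 1 was called lower, with a median log2 fold change of -0.08. This was LTO1, which helps place iron-sulfur clusters on ABCE1, at 418 ± 30.5 CPM in SP and 1192 ± 182 CPM in NSP (SD, n = 4 each). LTO1 had a log2 fold change of -1.51 (SE 0.15, edgeR adjusted p = 0.000144). The 3′ neighbour CCND1, with 497 bases across LTO1 exons on the other strand, had 2758 counts, beside 10717 for LTO1. CCND1 had a log2 fold change of -1.32 (edgeR adjusted p = 0.00155). Reads of the 2 genes cannot be told apart from these counts where the exons cross. With the strand setting not given, whether the other counts of LTO1 are its mRNA or RNA of the other strand was not tested. The release and initiation factors of the list did not pass the test.

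In the list of glutathione supply and conjugation for ABCC, 14 of 18 genes were tested and none was called, with a median log2 fold change of -0.04. With the replicate block 3 were called lower, beside 7% of all tested genes called lower with the block. GSTP1, a glutathione transferase, had a log2 fold change of -0.80 with an edgeR adjusted p of 0.0696, or 0.000122 with the block. SLC7A11, the cystine importer, had a log2 fold change of -1.44 with 0.0702, or 0.00116 with the block, and GPX4, the lipid peroxidase of ferroptosis, had -0.49 with 0.104, or 0.00674 with the block, all edgeR adjusted p-values. SLC7A11-AS1, on the other strand with 865 bases across SLC7A11 exons, had a log2 fold change of -1.15 (edgeR adjusted p = 0.01997). GSTM1 and GGT1 had 0 counts.

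None was called in the other 5 lists. Of the sterol and lipid partners of ABCA1 and ABCG1, 12 of 15 were tested, with a median log2 fold change of 0.05. Of the cisplatin and copper transport genes 7 of 15 were tested, with a median of 0.21, and LRRC8D, a subunit of the volume-regulated channel that takes up cisplatin, had a log2 fold change of 0.61 and an edgeR adjusted p of 0.159, or 0.0478 with the replicate block. Of the KATP channel and CFTR partners 5 of 9 were tested, with a median of -0.15, and NHERF1, a scaffold of CFTR, had a log2 fold change of -0.55 and an edgeR adjusted p of 0.303, or 0.00772 with the block. LRRC8D and NHERF1 thus passed the test with the block alone. The lncRNA SLC9A3R1-AS1, with 285 bases across NHERF1 exons on the other strand, had 1355 counts and a log2 fold change of -0.40 (edgeR adjusted p = 0.418). The heme pathway beside ABCB6 and ABCB10 had 13 of 15 genes tested and a median of 0.08, and the peroxisome partners of ABCD had 12 of 19 tested and a median of 0.14. The smallest p-values there belonged to SLC25A39, a mitochondrial carrier of glutathione, with a log2 fold change of -0.29, and to MMACHC, a cobalamin enzyme, with -0.41, and neither passed with or without the block.

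**Figure D5:**
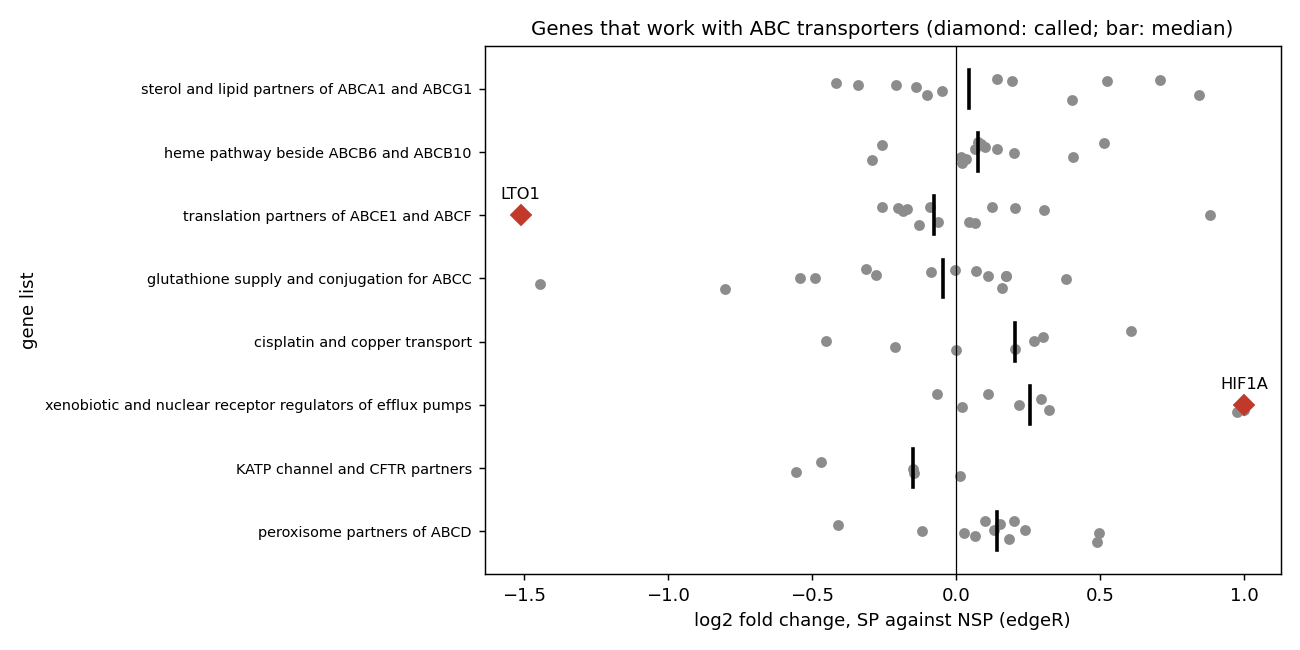
Log2 fold change of SP against NSP (edgeR, horizontal axis) of the tested genes in 8 lists of genes that work with ABC transporters, with a bar at each list's median. Diamonds are the 2 called genes, LTO1 at -1.51 and HIF1A at 1.001, and the medians lie between -0.15 and 0.26.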

How the data were processed

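SP and NSP cells of J82 were profiled by RNA-seq, with 4 libraries per group assigned by their labels. Libraries were made with the KAPA mRNA HyperPrep Kit and read as single-end 50-bp reads. The authors aligned them to hg19 with STAR, counted them on gencode version 19 genes with featureCounts of the Subread package and deposited raw counts without normalization; tool versions, the strand setting and the handling of reads with several matches are not given in the sources used here. No per-sample column was left unused.

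Gene symbols, exons and positions came from GENCODE mapped to GRCh37, joined by unversioned identifier (55538 of 57820 genes, 96.1%). The overlaps use this newer annotation and can differ from version 19. A 50-base window counts as occurring elsewhere when an exact match lies outside its own position in GRCh37. The other experiments of the study were not analysed here.

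Tests on the deposited counts used edgeR 4.0.16 under R 4.3.3 (TMM, filterByExpr with a minimum count of 10 and total of 15, glmQLFit, glmQLFTest, no covariate), with Benjamini-Hochberg adjustment over the 9309 genes tested. A call needs an adjusted p below 0.05 and more than 1.3-fold. CPM values use TMM library sizes. For single members the exact permutation test (two-sided) used log2(CPM + 1). The scripts were tested on simulated data. Alternatives were a replicate block, DESeq2 size factors or upper-quartile scaling in edgeR, DESeq2 1.42.0, limma 3.58.1 (voom with quality weights), no filter, a floor of 10 counts per library, a null hypothesis of 1.3-fold, no mitochondrial genes, no genes with exons across the other strand, a pseudocount of 0.1 and leaving out each library.

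The members, the lists and the tests were chosen with earlier results of these data known. Counts in every library are given for members that were called, did not overlap or had an unadjusted p under 0.05, for the tested drug-efflux ABCC genes, ABCG2 and ABCA1, and for the member with the most counts per kb in each subfamily. All other members are named with at least their totals, and of the lists the called genes or the smallest p. The single gene of the sterol and lipid list is not reported here. Per-library counts of ABCB8, ABCC4, ABCD3 and ABCD4, and the genes called with the block alone, were added after their values were seen. The marker PECAM1 was not matched by symbol. VWF and CDH5, the other endothelial markers, had 1 count each, and KRT7 (log2 fold change -1.35), FN1 (-1.25) and COL1A2 (2.09) were the called markers.

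The replicate numbers are shared between the groups. Libraries with the same number deviated from their groups together, with correlations of 0.380, 0.203, 0.322 and 0.321, all above 0.1, which meets the criterion set for pairing. The main fit and the permutation test stayed unpaired, and the fit with the block is given beside a result where it changes the call. Replicates of a group differed by more than sampling noise (chi-square per degree of freedom 5.61 to 13.5), and each was counted as 1 sample.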

Additional observations from a re-analysis of the deposited data

Results flagged for a closer look

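Of 28 groups of 4 libraries, the tested members in SP and in NSP, 3 held a library far from the other libraries, where chance gives about 1 in 20. For ABCC10 in SP, replicate 4 stood at 14.7 CPM against 5.36 to 5.76 CPM in the others, a gap of 0.957 of the group's range. For ABCB9 in NSP, replicate 4 stood at 678 CPM against 719 to 725 CPM, a gap of 0.862 of the range. For ABCA1 in SP, replicate 2 stood at 13.4 CPM against 5.76 to 7.04 CPM, a gap of 0.833 of the range.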

How the results depend on the processing

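The 14 log2 fold changes and 18 settings gave 245 values, of which 234 kept their direction and their side of the threshold. With the replicate block as pairing, 548 genes were called higher and 652 lower in SP, and 1 member was called higher, ABCA3 at a log2 fold change of 0.65. The edgeR adjusted p of ABCA3 was 0.0131 to 0.554 over all its alternatives. The block changed the call of no other member. Without a filter 303 genes were called higher and 381 lower, in the test against a fold change of 1.3 51 and 67, and without genes whose exons cross the other strand, where ABCB8, ABCB9, ABCC10 and ABCC11 drop out, 59 and 62. Leaving out each library in turn gave 69 to 164 genes higher and 89 to 181 lower, the lowest without NSP replicate 2, 0 members called, and a median over the tested members of 0.028 (without NSP replicate 1) to 0.14 (without NSP replicate 2). Log2 fold changes that changed sign when a library was left out ran from -0.13 to 0.53 for ABCA1, -0.14 to 0.075 for ABCA7, -0.10 to 0.16 for ABCC11, -0.011 to 0.15 for ABCF1, -0.15 to 0.047 for ABCF2 and -0.32 to 0.12 for ABCF3. The cause of these shifts was not tested. With the counts given, 28 members had 0 counts or too few to test, and 4 of the 14 intervals reached past 2-fold.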
